A study of Mus musculus with 62 samples.

Results

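The 30 genes described here encode the subunits of the mouse BAF, PBAF and ncBAF chromatin remodeling complexes. They were taken by symbol from a fixed list of subunits and found among the 27179 genes of the count tables, where each is named by an Entrez identifier. All 30 passed the filter on low counts in every comparison. BAF complexes use the energy of ATP to slide and evict nucleosomes, and so change which stretches of DNA transcription factors can reach. Each complex is built on 1 of a pair of related ATPases and a shared core, and ARID1, ARID2 with PBRM1, or BICRA subunits then set apart the canonical, the polybromo-associated (PBAF) and the non-canonical (ncBAF) forms. When neural progenitors leave the cell cycle, the progenitor subunits ACTL6A, SS18 and DPF2 are known to give way to ACTL6B, SS18L1 and DPF1 or DPF3, which turns progenitor BAF (npBAF) into neuronal BAF (nBAF).

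RNA from 62 mice, 1 library each, was sequenced after poly(A) selection. The forebrain set held 8 euploid and 7 Ts65Dn embryos at E17.5, where E is the embryonic day. Embryos of both sexes were used, and their titles carried 1 of 2 numbers, each found in both genotypes. The hippocampus set came from mice aged 6 weeks and held 8 euploid, 7 Ts65Dn and 8 Ts65Dn;Brwd1+/- males and 8 females of each of these genotypes. All carried the mixed background DBA/2J x B6EiC3Sn/J. Ts65Dn mice are a model of Down syndrome with segmental trisomy, that is 3 copies in place of 2 of the distal part of chromosome 16 and the proximal part of chromosome 17. Ts65Dn;Brwd1+/- mice also carried 1 mutant allele of Brwd1, a gene of the chromosome 16 segment that encodes a bromodomain and WD40-repeat chromatin protein, so that 2 working copies remained. Both changes are inherited and present in all cell types. The comparisons address whether trisomy, and the removal of the third Brwd1 copy, went with other levels of BAF subunit mRNA. In bulk tissue, fewer cells of a type and less RNA per cell cannot be told apart.

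Arid1b (Entrez 239985) was the only one of the 30 genes inside the triplicated segments, at chr17:4994297-5347656 on mm10. The segment was taken as the first 8986648 bases of chromosome 17, up to and including Pde10a. Phf10 (chr17:14944994-14961260) and Bicral (chr17:46798116-46890442) lie on the same chromosome outside it. The chromosome 16 segment, from 84718281 at the start of Mrpl39 to the end, holds Brwd1 and none of the 30.

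Depth and identity of the libraries bear on what follows. Totals ran from 14.9 to 137.1 M counts with a median of 46.3, and in any pair of libraries of a set the counts differed by far more than sampling noise (chi-square per degree of freedom at least 9.05). In 6 adult libraries the counts went against the labels. The libraries labelled male Ts65Dn B145, male Ts65Dn;Brwd1+/- B138 and T35 and female Ts65Dn;Brwd1+/- B136 had median log2 ratios of the triplicated genes to euploid of 0.02, 0.03, 0.03 and -0.01, whereas the other Ts65Dn and Ts65Dn;Brwd1+/- adults lay between 0.51 and 0.61. The library labelled male Ts65Dn B88 held Xist at a log2 CPM (counts scaled to a common library size) of 8.90 with Ddx3y at -2.14, and the library labelled female euploid B85 held Xist at -0.43 with Ddx3y at 5.62. A further 3 libraries stood apart, in that a criterion for outliers singled each out for 8 or 9 of the 30 subunits. These also differed in gene length or GC content. In female euploid B125 and female Ts65Dn;Brwd1+/- B176 long genes were lower relative to short ones by a log2 difference of -0.74 and -0.62, and in embryo TS6 GC-rich genes were lower relative to GC-poor ones by -0.49. Elsewhere these differences stayed between -0.16 and 0.11 for length and between -0.17 and 0.27 for GC content. All libraries were kept under their labels, and values without them are given beside some of the results they touch. Since the 3 that stood apart were chosen by the subunits' own values, estimates without them are descriptions and support no call.

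**Figure D1:**
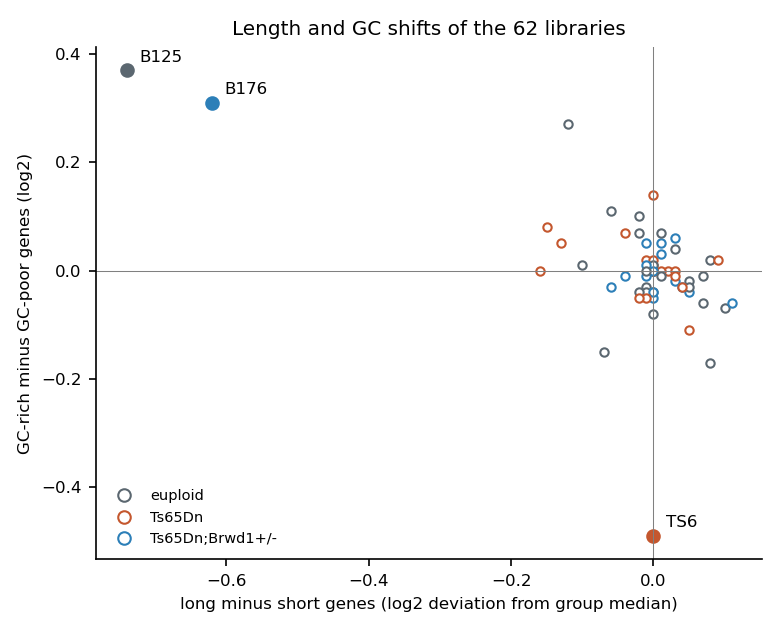
Each point is 1 of the 62 libraries. The horizontal axis gives the median log2 ratio of long minus short genes and the vertical axis that of GC-rich minus GC-poor genes, both against the library's group. B125 and B176 lie far to the left at -0.74 and -0.62, TS6 lies lowest at -0.49, and the remaining libraries gather around 0.

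The sequences below belong to the switch from Actl6a to Actl6b, because the level of Actl6a was among those that differed most between embryo and adult. REST, a zinc finger repressor of neuronal genes outside neurons, binds an element made of a left and a right motif, and the microRNA miR-9-3p (also called miR-9*) is known to repress Actl6a in neurons. The searched motifs, CAGCACC and GGACAGC on either strand, occurred in 7.14% and 6.56% of the 32851 RefSeq promoters of mm10 (250 bases before to 50 after the start). A promoter was given for 23 of the 30 genes, and the left motif was in 1 of them and the right motif in 4. Actl6b held both, 9 bases apart, at chr5:137553567-137553589 on the minus strand, from base 22 to base 44 after its start. This spacing was singled out after the match was seen, and 2 of the 32851 promoters (0.00609%) hold it. With 0 to 20 bases between the motifs, 23 promoters (0.07%) hold both, and Actl6b was the only subunit gene. With 2 bases between them, 7 promoters (0.0213%) hold both, and 0 of the subunit genes. Capitals mark these motifs.
Actl6b: CAGCACCgaggcggccGGACAGC

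The RefSeq sequence of mature miR-9-3p, the same from Mir9-1, Mir9-2 and Mir9-3, is shown with its seed, bases 2 to 8, in capitals.
miR-9-3p: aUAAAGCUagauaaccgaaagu
The seed match AGCTTTA was found in the 3′ untranslated regions of 7 of the 30 genes (Smarca2, Smarcc1, Smarcd2, Smarce1, Arid2, Actl6a and Bcl11a) and in 11.3% of 21022 GENCODE genes. Per kb of this sequence, there were 0.187 matches in the 30 genes and 0.0917 in all. Of these 7 genes, Smarca2 and Smarcd2 were higher in euploid adult hippocampus than in euploid E17.5 forebrain, and the others were lower. Of all 30 subunits 23 were lower there (76.7%), so genes with a match were not lower more often. The sites in the 3 of these genes with the largest fall between embryo and adult are shown, with the match in capitals. That of Actl6a is at chr3:32726629-32726657, that of Smarce1 at chr11:99209739-99209767 on the minus strand, and those of Smarcc1 at chr9:110238602-110238630 and chr9:110239430-110239458.
Actl6a: tcaacgtctgtAGCTTTAgtacactcagg
Smarce1: accaaagccatAGCTTTAaacccttccag
Smarcc1, first site: gcaaagagcacAGCTTTAcaacaagccct
Smarcc1, second site: gtgtattttaaAGCTTTAtgtatgagagc
These matches describe letters in the reference and carry no measurement of REST or miR-9 binding.

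Per kb of exon, the subunits spanned a wide range. In euploid embryos the actin gene Actb, whose reads may be shared with other actin genes, stood at 443 ± 21.5 RPKM (SD, n = 8). The core scaffold Smarcc2 followed, and then the ATPase Smarca4 at 63.7 ± 3.99. Arid1a, at 24.7 ± 2.26, lay above its paralog Arid1b at 12.3 ± 0.815. The neuronal Dpf3 was the lowest at 0.902 ± 0.289 RPKM, and its smallest count in any library was 50. In adult euploid males the order began with the same 3 genes, at 361 ± 33.2, 81.9 ± 4.29 and 35.4 ± 2.13 RPKM (n = 8), and Dpf3 (1.38 ± 0.265) and Bcl7c (1.27 ± 0.109) were last without differing beyond their spread. The neuronal Actl6b exceeded the progenitor Actl6a already in the embryo, at 37.3 ± 1.63 against 8.60 ± 1.62 RPKM.

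Arid1b encodes BAF250b, a DNA-binding subunit of canonical BAF that excludes its paralog BAF250a from the same complex. In E17.5 forebrain its log2 CPM was 7.37 at the lowest, 7.54 at the median and 7.65 at the highest in 8 euploid embryos. In 7 Ts65Dn embryos these values were 7.47, 8.08 and 8.29. The groups overlapped only through TS6, the library with few GC-rich reads, and the next Ts65Dn embryo stood at 7.98. Arid1b rose by a log2 fold change of 0.50 (SE 0.09, adjusted p = 0.00765, edgeR quasi-likelihood test with Benjamini-Hochberg adjustment), a fold of 1.41. Without TS6 the estimate was 0.58 (SE 0.06).

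In male hippocampus, euploid mice had Arid1b at 7.28, 7.43 and 7.69 log2 CPM (lowest, median and highest). Ts65Dn males had it at 7.49, 7.98 and 8.12, where the lowest was B145, the library without trisomic dosage, and the next was 7.87. The log2 fold change was 0.46 (SE 0.10, edgeR adjusted p = 0.0289), and without the libraries against their labels 0.54 (SE 0.07, adjusted p = 5.66e-05), at which point no Ts65Dn male overlapped the euploid range.

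Ts65Dn females held Arid1b at 7.67, 7.93 and 8.13 log2 CPM, against 6.67, 7.48 and 7.67 in euploid females. The groups met at 7.67, in Ts65Dn T141 and in B85, whose sex genes went against its label, and B125 was far below the other euploid libraries. The log2 fold change was 0.52 (SE 0.12, edgeR adjusted p = 0.0271). It was 0.56 (SE 0.11, adjusted p = 0.0125) without the libraries against their labels. Without those that stood apart the estimate was 0.44 (SE 0.09).

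Ts65Dn;Brwd1+/- mice keep the third copy of Arid1b. Males of this genotype had 7.43, 7.84 and 8.13 log2 CPM, with T35 (7.43) and B138 (7.46) apart from the next library at 7.73. Against euploid males the log2 difference was 0.34 (SE 0.10, edgeR adjusted p = 0.161) and did not pass the threshold of 0.1. Without the libraries against their labels Arid1b rose by 0.44 (SE 0.07, adjusted p = 0.000467).

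Females of the genotype had 7.31, 7.90 and 8.14 log2 CPM, with B136 and B176 both at 7.31 and the next at 7.83. Against euploid females the difference was 0.40 (SE 0.12, edgeR adjusted p = 0.188). It passed the threshold at 0.50 (SE 0.12, adjusted p = 0.0561) without the libraries against their labels. Without those that stood apart the estimate was 0.38 (SE 0.09). Between Ts65Dn;Brwd1+/- and Ts65Dn mice, which share 1 fit with the euploid controls, the log2 difference was -0.12 (SE 0.10, adjusted p = 0.814) in males and -0.11 (SE 0.12, adjusted p = 1) in females. Under the alternatives, which include leaving out the libraries against their labels, it ran from -0.18 to -0.08 in males and from -0.17 to -0.06 in females.

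**Figure D2:**
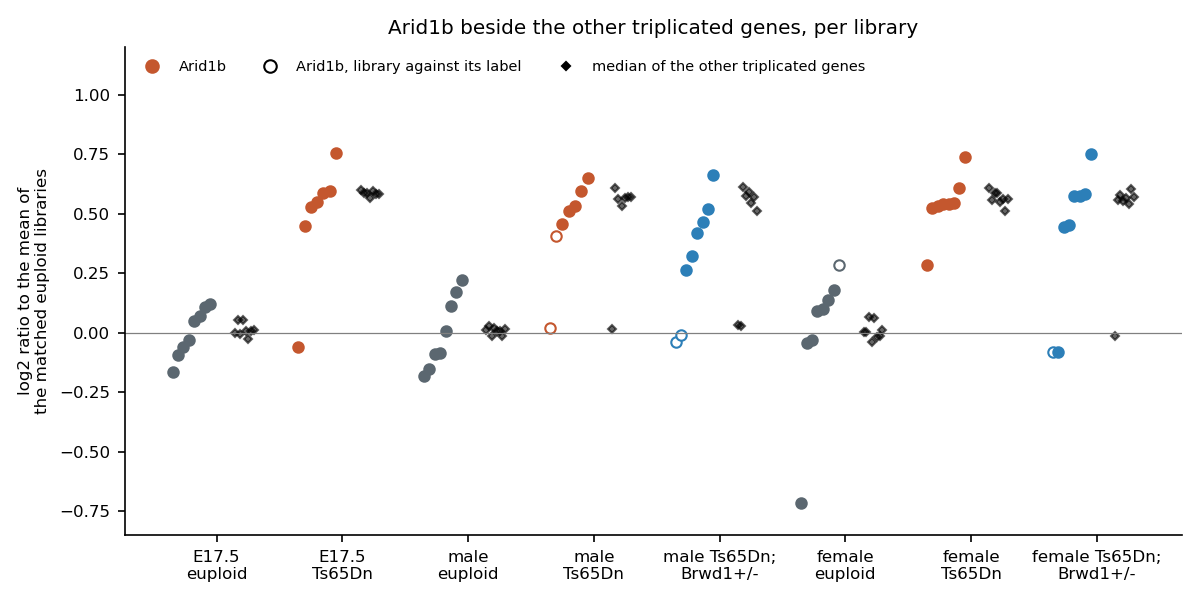
Each point is a library, with the log2 ratio of Arid1b to the euploid mean of its set beside the median log2 ratio of the other triplicated genes. Grey marks euploid, orange Ts65Dn and blue Ts65Dn;Brwd1+/- mice, and open circles mark libraries that go against their label. The 4 libraries labelled trisomic without trisomic dosage lie with the euploid libraries, near 0.

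Arid1b lay within the middle range of the triplicated genes. A rise in proportion to 3 copies in place of 2 is 0.585 on the log2 scale. The triplicated genes tested in embryos, Arid1b among them, had a median log2 fold change of 0.56 (quartiles 0.47 and 0.69), with 89 of them above Arid1b. In males the median was 0.50 (quartiles 0.44 and 0.58), with 88 above, and in females it was 0.53 (quartiles 0.40 and 0.65), with 69 above. When the median of the other triplicated genes was subtracted from the Arid1b ratio in each library, the 7 differences between genotypes ran from -0.102 to -0.017, none of them past the threshold (exact 2-sided permutation test, smallest adjusted p = 0.788 over 7 tests). Without the libraries against their labels the differences ran from -0.119 to 0.023 (smallest exact adjusted p = 0.71), and without those that stood apart from -0.118 to 0.012.

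With edgeR and all libraries kept, Arid1b alone passed the threshold between Ts65Dn and euploid mice in each of the 3 sets. DESeq2 without RUVr factors also called 1 subunit in each, and fits with such factors, which are estimated from the residuals to take up unwanted variation, called 1 to 11. In E17.5 forebrain 1 of 30 genes was called, beside 1.35% of all genes tested (221 of 16395). At an unadjusted p under 0.05 there were 5, against 12.1% of all genes. The estimates of 27 of the 30 were below 0, with a median of -0.08, while 53.7% of all genes had estimates below 0. Of 48 genes of other chromatin remodelers 38 were below 0, with a median of -0.07, so this lean was not particular to the subunits. The core scaffold Smarcc1 (BAF155) had 7.46, 7.54 and 7.60 log2 CPM in euploid and 7.27, 7.41 and 7.53 in Ts65Dn embryos, overlapping ranges with a log2 difference of -0.12 (SE 0.05, edgeR adjusted p = 0.33). Bicra, the scaffold of ncBAF, ran from 6.35 to 6.89 in euploid embryos and from 5.39 (TS6) to 6.56 in Ts65Dn embryos, a difference of -0.31 (SE 0.14, adjusted p = 0.383). The criterion for outliers singled out TS6 for 9 of the 30 genes, Bicra among them.

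In male hippocampus 1 of 30 was called beside 0.795% of the 16851 genes tested, and 3 had an unadjusted p under 0.05, against 8.91% of all genes. The estimates were below 0 in 10 of the 30, with a median of 0.02, and in 49.2% of all genes. Smarcd3 (BAF60c), a core subunit that links the complex to transcription factors, had 6.02, 6.19 and 6.24 log2 CPM in euploid and 5.94, 6.06 and 6.11 in Ts65Dn males (log2 difference -0.11, SE 0.05, edgeR adjusted p = 0.455). Bcl7c, a small accessory subunit, ran from 3.01 to 3.32 and from 2.42 (B145) to 3.26 (difference -0.21, SE 0.09, adjusted p = 0.512). Both pairs of ranges overlapped.

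In female hippocampus 1 of 30 was called beside 3.17% of all genes (543 of 17146), and 4 had an unadjusted p under 0.05, against 15.4% of all genes. The estimates of 27 were below 0 with a median of -0.07, while those of 54.3% of all genes were. Of 48 genes of other chromatin remodelers 34 were below 0, also with a median of -0.07. The count of 27 subunits became 22 without the libraries against their labels. Smarcd2 (BAF60b) had 4.28, 4.66 and 4.86 log2 CPM in euploid and 4.19, 4.38 and 4.49 in Ts65Dn females (log2 difference -0.27, SE 0.09, edgeR adjusted p = 0.137). For Smarcd3 the values were 6.11, 6.27 and 6.52 and then 6.01, 6.07 and 6.40 (difference -0.19, SE 0.07, adjusted p = 0.206). Without B125 and B176, 7 of the 30 were called, beside 17.4% of all genes (2989 of 17157). These were Arid1b, with an estimate above 0, and Arid1a, Arid2, Pbrm1, Bicra, Bicral and Smarcd2, with estimates between -0.28 and -0.16. B125 had been left out for low values of 4 of these 6 genes among others, so this count describes the choice of libraries and is no test of them.

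**Figure D3:**
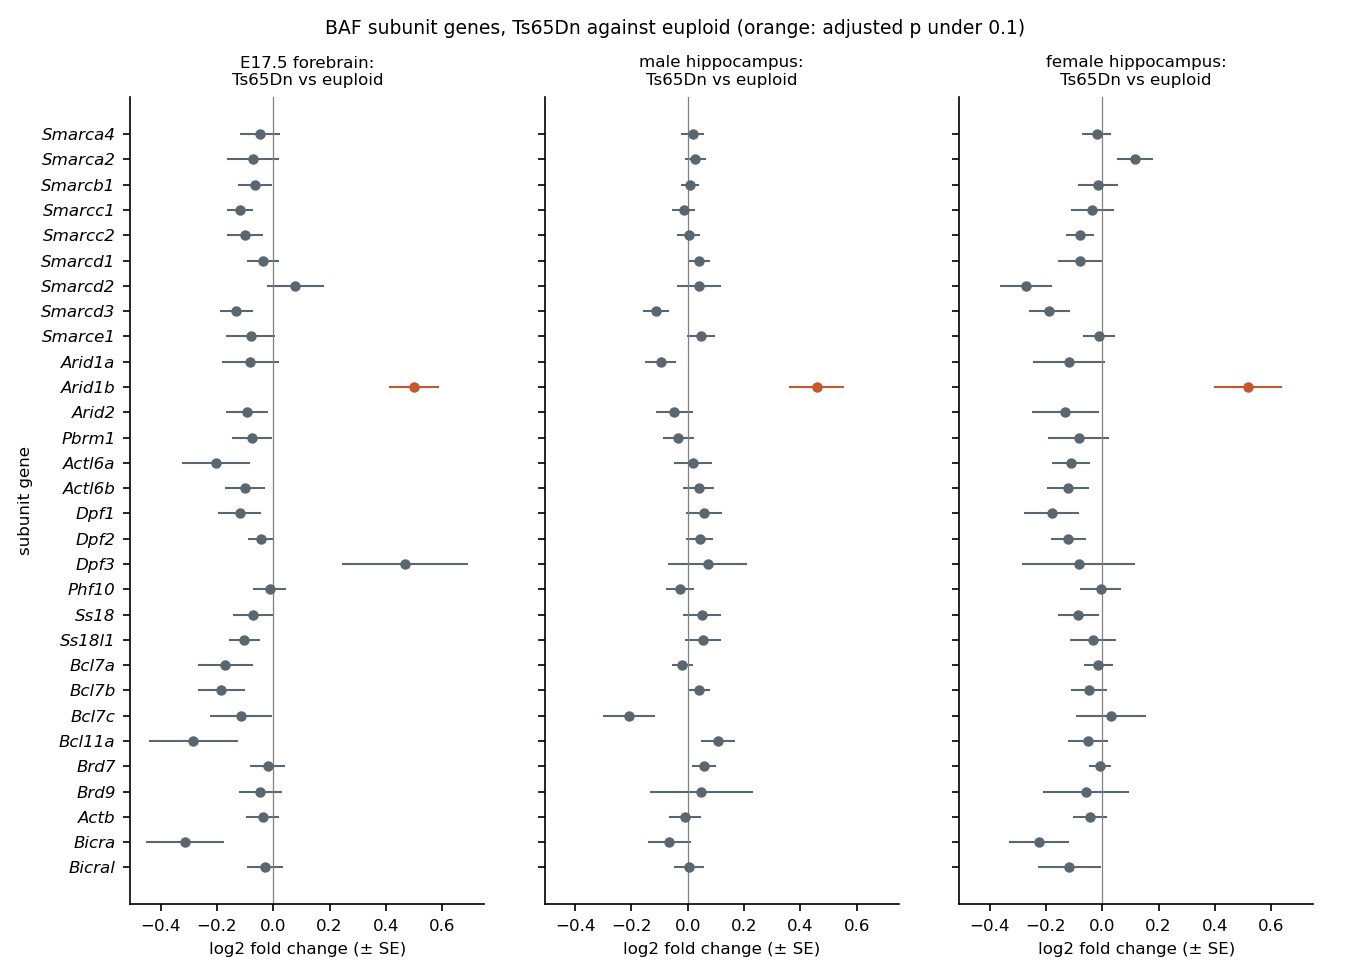
The log2 fold change of each of the 30 subunits, Ts65Dn against euploid, with its standard error, in E17.5 forebrain, male hippocampus and female hippocampus. Orange points have an edgeR adjusted p under 0.1, and in each panel this is Arid1b alone, at 0.50, 0.46 and 0.52.

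With edgeR no subunit was called between Ts65Dn;Brwd1+/- and Ts65Dn mice. Brwd1 itself differed between Ts65Dn;Brwd1+/- and Ts65Dn mice by a log2 of -0.25 in either sex (SE 0.09 and 0.11, edgeR adjusted p = 0.626 and 1), so that the targeted gene did not pass the threshold in this comparison. In males edgeR called 0 of 30 subunits, beside 0% of all genes, with 5 at an unadjusted p under 0.05, against 7.48% of all genes. DESeq2 without RUVr factors called 0 beside 0.00593% of all genes, and with 1 and 3 factors it called 1 and 4 subunits. Smarca4 (BRG1), the main ATPase of progenitors, had 7.69, 7.76 and 7.84 log2 CPM in Ts65Dn and 7.53, 7.69 and 7.79 in Ts65Dn;Brwd1+/- males (log2 difference -0.11, SE 0.04, adjusted p = 0.626). The alternative ATPase Smarca2 (BRM) had 8.11, 8.15 and 8.22 and then 7.91, 8.04 and 8.16 (difference -0.10, SE 0.04, adjusted p = 0.626). Bcl7b ran from 5.54 to 5.77 and from 5.44 to 5.64 (difference -0.12, SE 0.04, adjusted p = 0.626). The estimates of 27 of 30 were below 0, at a median of -0.06, against 52.2% of all genes. Of 48 genes of other chromatin remodelers 32 were below 0, at a median of -0.04. These groups include B145, B88, B138 and T35, which went against their labels, and the estimates were made with them.

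In females edgeR called 0 of 30 in the same comparison, beside 0% of all genes, with 0 at an unadjusted p under 0.05, against 3.52% of all genes. DESeq2 called 0 without factors, beside 0.0817% of all genes, and 0 with 1 or 3 factors. The estimates split evenly, 15 above and 15 below 0. The smallest p belonged to Smarcd2 (log2 difference 0.13, SE 0.09), the neuronal Actl6b (0.09, SE 0.08) and Dpf3 (-0.22, SE 0.20), each with an edgeR adjusted p of 1.

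Against euploid mice, which the Ts65Dn comparison also uses, Ts65Dn;Brwd1+/- males had 0 of 30 called beside 0.576% of all genes (97 of 16851), with 6 at an unadjusted p under 0.05 by edgeR. Of all genes, 10.1% had such a p. DESeq2 without factors called 2 of 30, beside 1.73% of all genes. Arid1a had 7.56, 7.75 and 7.97 log2 CPM in euploid males and 7.37, 7.59 and 7.69 in Ts65Dn;Brwd1+/- males, a difference of -0.20 (SE 0.05, edgeR adjusted p = 0.136). Without the libraries against their labels Arid1a fell by 0.23 on the log2 scale (SE 0.06, adjusted p = 0.0728) and 2 of 30 were called, beside 1.83% of all genes. Bicral had a difference of -0.12 (SE 0.05, adjusted p = 0.428).

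Ts65Dn;Brwd1+/- females had 0 of 30 called against euploid females beside 0.729% of all genes, with 2 at an unadjusted p under 0.05 by edgeR. Of all genes, 11.2% had such a p. DESeq2 without factors called 1 of 30, beside 1.77% of all genes. Smarcd3 differed by -0.17 (SE 0.07, edgeR adjusted p = 0.39) and Ss18 by -0.14 (SE 0.07, adjusted p = 0.488). Arid1b alone was called without the libraries against their labels, beside 0.81% of all genes, and without those that stood apart, beside 4.44%.

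The genotype differences were not shown to depend on sex. For Ts65Dn against euploid, the interaction of sex and genotype in edgeR called 0 of 30 subunits beside 0% of all genes (0 of 17427), and in DESeq2 0 of 30 beside 0.539%. By edgeR 1 subunit had an unadjusted p under 0.05, against 11.1% of all genes. It was Smarcd2, whose log2 fold change in females was lower than that in males by -0.30 (SE 0.12, edgeR adjusted p = 0.35). For Ts65Dn;Brwd1+/- against Ts65Dn, edgeR called 0 of 30 beside 0% of all genes, with 0 at an unadjusted p under 0.05, against 3.73% of all genes. DESeq2 called 0 of 30 beside 0.00574%.

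Subunits that replace each other in the complex were compared within libraries as log2 ratios of CPM, for 7 pairs in 7 comparisons, or 49 exact 2-sided permutation tests adjusted together. Arid1b over Arid1a passed the threshold in all 5 comparisons with euploid mice, and no other pair did in any. In embryos the ratio was -0.98, -0.87 and -0.65 in euploid and -0.39, -0.26 and -0.13 in Ts65Dn libraries, which did not overlap, TS6 included. The means differed by 0.583 (exact adjusted p = 0.00254). In males the euploid values -0.40, -0.26 and -0.18 lay below all Ts65Dn values, -0.14, 0.31 and 0.39 (difference 0.546, exact adjusted p = 0.00254), with B145 the Ts65Dn library nearest to them. Without the libraries against their labels the difference was 0.62. In females the euploid values -0.55, -0.33 and -0.24 and the Ts65Dn values 0.16, 0.28 and 0.39 were also apart (difference 0.629, exact adjusted p = 0.00254). Without B85 the difference was 0.618.

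In Ts65Dn;Brwd1+/- mice the ratio of Arid1b to Arid1a exceeded the euploid one by 0.521 in males (exact adjusted p = 0.00761) and 0.546 in females (exact adjusted p = 0.0107). Without the libraries against their labels, which include B138 and T35, these differences were 0.668 and 0.63 (exact adjusted p = 0.00544 and 0.00714). Without those that stood apart the differences from euploid were 0.576 in Ts65Dn embryos, 0.644 in Ts65Dn females and 0.518 in Ts65Dn;Brwd1+/- females. With all libraries, the ratio differed from that of Ts65Dn mice by -0.026 and -0.083 (exact adjusted p = 0.971 for both). Without the libraries against their labels it differed by 0.048 in males and 0.012 in females (exact adjusted p = 0.642 and 0.949). In females the difference was -0.126 without the libraries that stood apart. The switch pairs gave smaller differences. Actl6b over Actl6a differed between Ts65Dn and euploid by 0.092 in embryos, 0.022 in males and 0.003 in females (exact adjusted p at least 0.971). Dpf3 over Dpf2 differed by 0.535 in embryos, where Dpf3 was close to its lowest counts (exact p = 0.0564, adjusted p = 0.346), and Smarca2 over Smarca4 by 0.136 in females (exact p = 0.0427, adjusted p = 0.346). Without the libraries against their labels, Smarca2 over Smarca4 differed by 0.102 in females (exact p = 0.0895, adjusted p = 0.452).

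**Figure D4:**
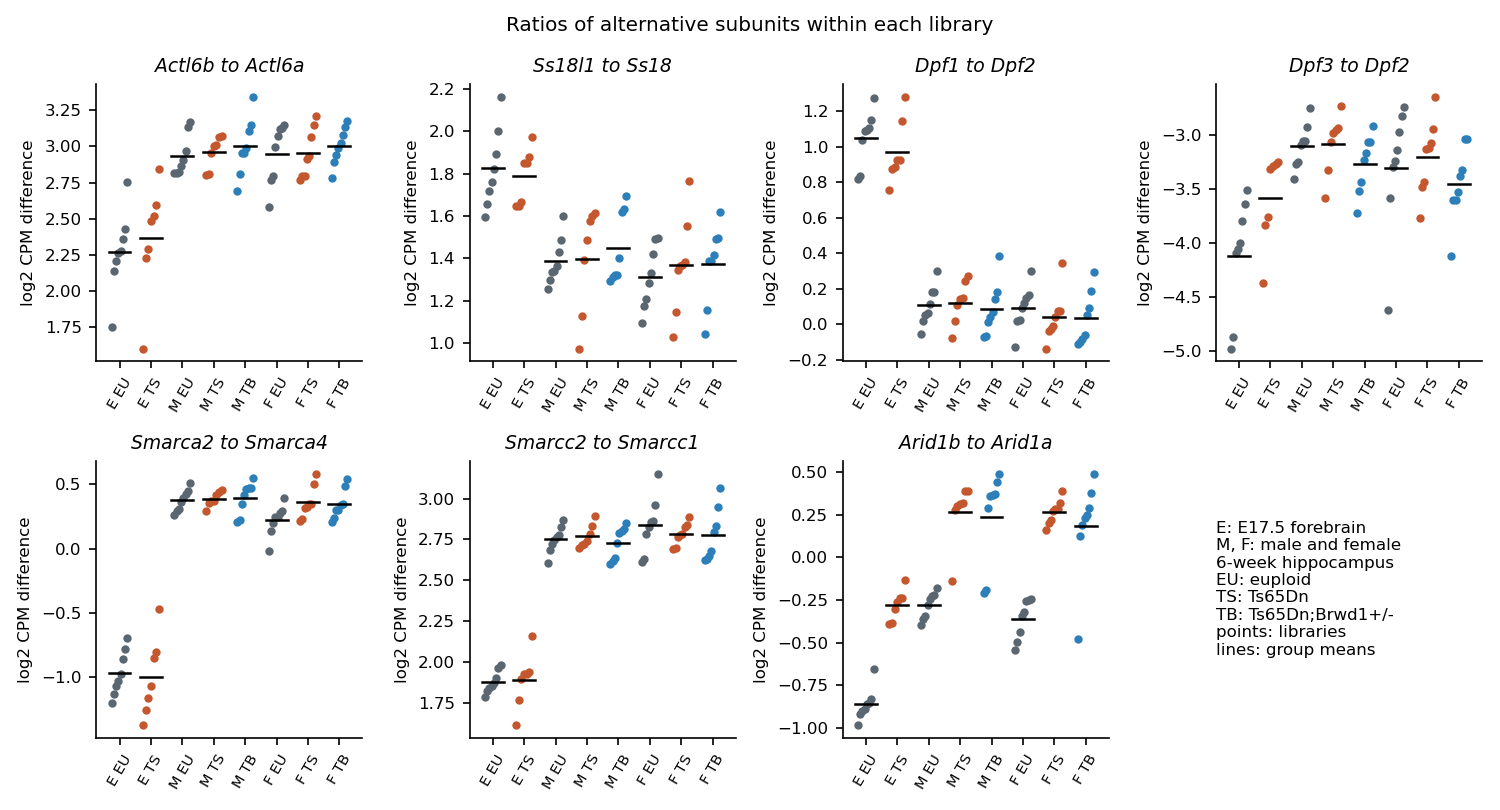
The log2 ratio of CPM for 7 pairs of alternative subunits, with 1 point per library and the groups side by side. Arid1b over Arid1a separates euploid from Ts65Dn libraries in each set, and Smarca2 over Smarca4, Smarcc2 over Smarcc1 and Dpf1 over Dpf2 separate embryos from adults.

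The largest differences among the subunits were between euploid adult hippocampus and euploid E17.5 forebrain. Age, brain region, mix of sexes and count table all changed together between these sets and cannot be told apart. Of the 30 genes 29 were called, 6 higher and 23 lower in the adult, beside 84.3% of all genes (14536 of 17234), and the same number was called under each of 7 alternatives. The median log2 fold change was -0.49 for the subunits and -0.01 for all genes. Markers of cell types differed as well. Of 6 neuronal markers 4 were higher and 2 lower in the adult, and all 8 markers of progenitors and dividing cells were lower. On the log2 scale the adult minus embryo difference was 6.18 for the neuronal Camk2a, 6.27 for the myelin gene Mbp, 5.68 for the astrocyte gene Gfap, and -4.47 and -5.41 for the proliferation genes Mki67 and Top2a. The summed neuron markers ran from 11.53 to 11.77 log2 CPM in euploid embryos and from 13.15 to 13.69 in euploid adults, and those of progenitors and dividing cells from 8.93 to 9.57 and from 6.26 to 7.14. Oligodendrocyte markers summed to 6.45 to 7.20 in embryos and 11.36 to 12.50 in adults, and choroid plexus markers ran widely in both, from 5.67 to 10.48 and from 5.59 to 12.63. The part of these cells in the subunit differences was not tested.

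In this comparison 8 embryos and 16 adults were scaled together, so that levels differ slightly from those above. Smarce1 (BAF57), an HMG-box core subunit, fell furthest, from 6.77, 7.16 and 7.35 log2 CPM in embryos to 4.18, 4.45 and 4.59 in adults (log2 fold change -2.66, SE 0.06, edgeR adjusted p = 1.05e-23). Bcl7c fell from 4.54, 4.84 and 4.98 to 2.69, 3.16 and 3.72 (-1.62, SE 0.09). The progenitor subunit Actl6a fell from 4.67, 5.11 and 5.56 to 3.57, 3.76 and 3.91 (-1.34, SE 0.07). None of these ranges overlapped. Smarcc1 (-1.24, SE 0.05) and the neuronal Dpf1 (-1.21, SE 0.07) completed the 5 largest falls.

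In the other direction Bcl7b rose from 4.52, 4.66 and 4.84 log2 CPM to 5.65, 5.76 and 6.09 (log2 fold change 1.10, SE 0.05), without overlap. Smarcd2 rose by 0.66 (SE 0.09), Dpf3 by 0.63 (SE 0.19), Bicral by 0.58 (SE 0.09) and Smarca2 by 0.42 (SE 0.06), all with an edgeR adjusted p of at most 0.00433. Arid1b rose by 0.23 (SE 0.08, adjusted p = 0.0138), between 0.15 and 0.27 under the alternatives. Brd9, the bromodomain subunit of ncBAF, was the only member not called (0.03, SE 0.12, adjusted p = 0.807).

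Members of the npBAF to nBAF switch did not all differ in the direction of their names. Both Actl6a and the neuronal Actl6b (-0.65, SE 0.06) were lower in the adult, as were Ss18 (-0.30, SE 0.06) and the neuronal Ss18l1 (-0.77, SE 0.05), and Dpf2 (-0.26, SE 0.05) and the neuronal Dpf1. As ratios, Actl6b over Actl6a averaged 2.27 in euploid embryos and 2.94 and 2.95 in euploid males and females, with ranges that overlapped between embryo and female. Ss18l1 over Ss18 went the other way, from 1.83 to 1.39 and 1.31, and Dpf1 over Dpf2 from 1.05 to 0.11 and 0.09, the latter without overlap. Dpf3 over Dpf2 went in the direction of the switch, from -4.12 to -3.1 and -3.3, with ranges that overlapped between embryo and female. Dpf3 had the fewest counts of the subunits. For the ATPase pair, Smarca2 over Smarca4 was -0.97 in embryos and 0.38 and 0.22 in adults, without overlap. These ratios of CPM are not corrected for transcript length. Divided by the union of all annotated exons, 6475 bases for Smarca4 and 14269 for Smarca2, Smarca4 stood above Smarca2 in euploid males. The values were 35.4 ± 2.13 and 20.9 ± 1.09 RPKM. This order depends on those lengths, and the transcripts in use were not tested, so which ATPase had more mRNA in the adult is not settled here. Smarcc2 over Smarcc1 went from 1.88 to 2.75 and 2.83, also without overlap.

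**Figure D5:**
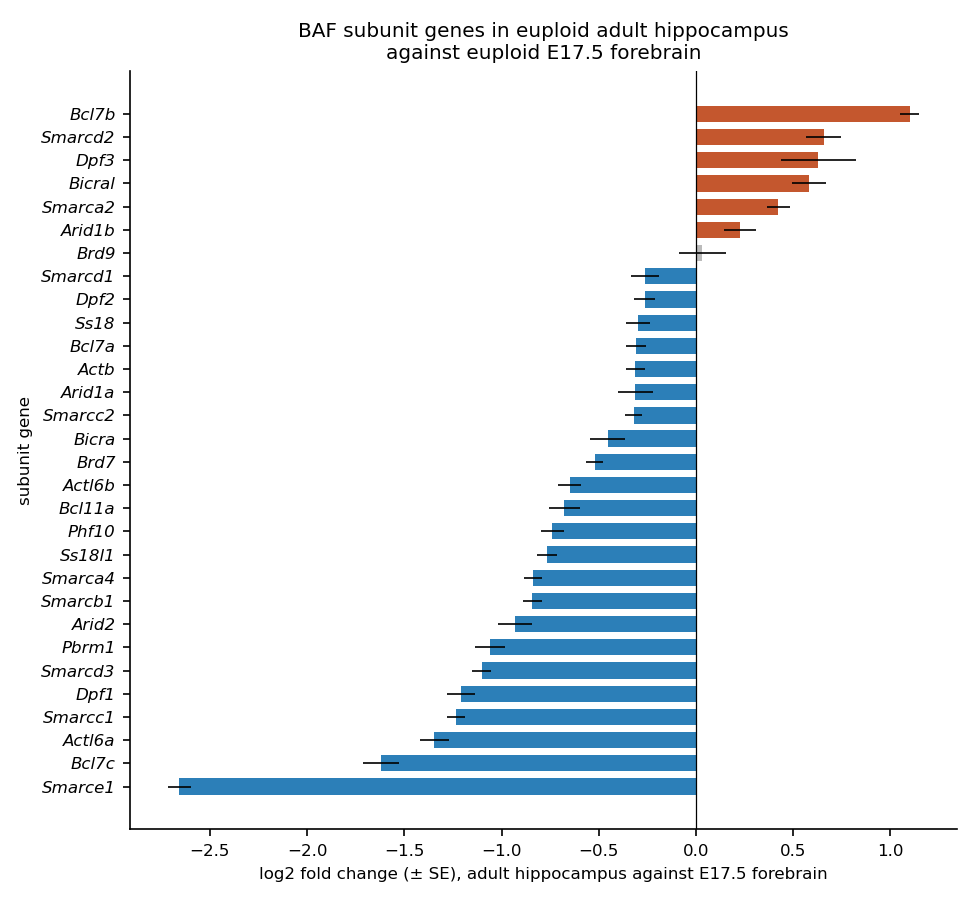
Bars give the log2 fold change of each subunit, euploid adult hippocampus against euploid E17.5 forebrain, with the standard error. Smarce1 is lowest at -2.66 and Bcl7b highest at 1.10, and 23 of the 30 bars point below 0.

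For context, 48 genes of other chromatin remodelers (such as the ISWI, CHD and INO80 families) were counted in the same fits. None was called by edgeR in the 7 genotype comparisons, beside 0% to 3.17% of all genes. Those at an unadjusted p under 0.05 numbered 2 in embryos (4.17%, against 12.1% of all genes). For Ts65Dn against euploid, Ts65Dn;Brwd1+/- against Ts65Dn and Ts65Dn;Brwd1+/- against euploid, males had 2, 8 and 13. These were 4.17%, 16.7% and 27.1%, against 8.91%, 7.48% and 10.1% of all genes. Females had 2, 0 and 6 (4.17%, 0% and 12.5%, against 15.4%, 3.52% and 11.2%). Between adult and embryo 41 of the 48 were called, 12 higher and 29 lower, beside 84.3% of all genes. Their median log2 fold change was -0.25, against -0.49 for the 30 subunits. Rest, which encodes the repressor REST, was lower in the adult by -0.64 (SE 0.14, edgeR adjusted p = 0.000139). Actl6b, which holds the searched motifs, was lower as well, and a link between the 2 genes was not tested.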

How the data were processed

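Poly(A) RNA was extracted with Trizol and RNeasy columns and sequenced with TruSeq RNA v2 libraries. The authors mapped reads to mm10 with HISAT2, counted them on genes with featureCounts 2.0.1, and deposited raw counts per Entrez gene without normalization, in 1 table for embryos and 1 for adults. The submitters' processing notes give HISAT2 2.1.0, DESeq2 2.11.40.6 and builds mm10 and mm9, while strand and multiply mapped reads are not given in the sources used here, so overlapping genes cannot be told apart. Gene positions came from RefSeq on mm10 for 25275 of 27179 genes, and the 1904 others held 0.3% of adult and 0.805% of embryo counts. Depth per library was 14.9 to 137.1 M counts.

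Genes were kept by filterByExpr at 10 counts, scaled by TMM and fitted together with the robust quasi-likelihood test of edgeR 4.0.16 (R 4.3.3), and calls had a Benjamini-Hochberg adjusted p under 0.1. Males and females each had a joint fit of their 3 genotypes, interactions used all adults, and the age comparison joined the euploid libraries of both tables. The study used RUVr factors, whose number its methods do not give, so they entered only as alternatives. Log2 CPM used a prior count of 0.5. RPKM divides by the union of GENCODE exons. Pair ratios were tested by exact 2-sided permutation. Alternatives were DESeq2 1.42.0 with 0, 1 or 3 RUVr factors, upper-quartile scaling, no filter, embryo number blocks, and omission of single libraries or of those against their labels. The omission of libraries that stand apart was added after seeing the data. A library stood apart when Dixon's criterion singled it out for 5 or more members. The sex of the embryos was taken from the study's methods. The genes named are Arid1b, called members, the switch and ATPase subunits, the 3 smallest p-values per genotype comparison, and the 5 largest changes each way with age. The members and the lists were chosen with earlier results of these data known. The fits were tested on simulated data. The p-values set differences between groups against the variation between animals within labelled groups. With all libraries kept, this variation includes the libraries against their labels and those that stood apart.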

Additional observations from a re-analysis of the deposited data

Results flagged for a closer look

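In each of the 8 groups of 7 or 8 libraries and for each of the 30 subunits, the highest or lowest library was set against the rest by Dixon's criterion, for 240 groups in all. The criterion was met 34 times (14.2%), by 11 animals, where chance gives about 1 in 20 groups. Values are log2 CPM. Most belonged to 3 libraries. The Ts65Dn embryo TS6 was low for Smarca4 (8.49), Smarcc2 (8.98), Smarcd1 (7.29), Smarcd3 (7.23), Arid1a (7.71), Arid1b (7.47), Actl6b (7.05), Bcl7c (4.21) and Bicra (5.39). The female euploid B125 was low for Arid1a (6.92), Arid1b (6.67), Arid2 (4.92), Pbrm1 (5.15), Ss18l1 (5.80) and Bicral (5.64) and high for Smarcb1 (6.16) and Bcl7b (5.99). The female Ts65Dn;Brwd1+/- library B176 was low for Arid1a (6.82), Arid2 (4.82), Pbrm1 (5.15), Phf10 (4.01), Ss18l1 (5.70) and Bicral (5.60) and high for Smarcb1 (6.20), Actl6a (3.92) and Bcl7b (5.93). These are the libraries with a shift by GC content or length given above, and the part of that shift in each gene was not tested.

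Single values were set apart in 8 other libraries. In embryos these were Smarcb1 in TS1 (7.13) and Smarca4 in EU4 (8.73). In males they were Arid1b in B145 (7.49), which lacks trisomic dosage, Bcl7a in B88 (6.77) and Smarcc2 in B24 (8.86). In females they were Smarcd1 in B85 (7.63), whose sex genes went against its label, Arid1b in T141 (7.67) and Ss18 in B175 (5.04).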

How the results depend on the processing

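The counts of called subunits, the values of Arid1b and of subunits called with age, and the counts of ratio tests were recomputed 540 times. Of these 499 were rated the same, 41 stronger (newly past the threshold, or a higher count), 0 weaker and 0 reversed. By these rules a main count of 0, or a main estimate that was not called, could not be rated weaker or reversed. No count could be rated reversed. A count was rated the same when it stayed near the main count. An estimate was rated the same when it stayed on its side of the threshold, even if an uncalled one changed sign. Arid1b in the sex by genotype interaction for Ts65Dn against euploid, rated the same, ran from -0.02 to 0.07. Estimates of subunits that were not called did change sign, up to 13 of 30 with a library left out (B176, female Ts65Dn;Brwd1+/- against Ts65Dn) and 14 there without the libraries that stood apart, which were chosen by the subunits' own values. Arid1b stayed called in Ts65Dn against euploid under all alternatives run, with log2 fold changes of 0.46 to 0.58 in embryos, 0.43 to 0.54 in males and 0.44 to 0.57 in females. Counts of called subunits grew mainly with RUVr factors. With DESeq2 and 1 factor they were 8 in embryos, 7 in Ts65Dn females against euploid, and 1, 3 and 5 for male Ts65Dn;Brwd1+/- against Ts65Dn, male Ts65Dn;Brwd1+/- against euploid and female Ts65Dn;Brwd1+/- against euploid. With 3 factors they were 10 in embryos, 4 and 11 in Ts65Dn males and females against euploid, 4 in male Ts65Dn;Brwd1+/- against Ts65Dn, and 4 and 11 in male and female Ts65Dn;Brwd1+/- against euploid. Calls over all genes grew too. With 1 and 3 factors they reached 13.1% and 24.2% in embryos, 3.49% and 6.98% in male Ts65Dn against euploid, 2.52% and 5.66% in male Ts65Dn;Brwd1+/- against Ts65Dn, 3.99% and 7.65% in male Ts65Dn;Brwd1+/- against euploid, 16.3% and 25.3% in female Ts65Dn against euploid, and 12% and 20.5% in female Ts65Dn;Brwd1+/- against euploid. The cause was not tested. Without factors DESeq2 called 2 and 1 in male and female Ts65Dn;Brwd1+/- against euploid, where Arid1b had 0.34 and 0.40. Without the libraries against their labels, 2 and 1 were called there, and without those that stood apart 7 in Ts65Dn females and 1 in Ts65Dn;Brwd1+/- females. Arid1b in Ts65Dn;Brwd1+/- against euploid passed with 1 and 3 factors at 0.34 and 0.33 in males and 0.42 and 0.42 in females, at 0.44 in males and 0.50 in females without the libraries against their labels, and at 0.38 in females without those that stood apart. Leaving out 1 library gave 1 to 2 called in embryos (2 without TS1), 1 to 2 in Ts65Dn females (2 without euploid B125 or B173 or Ts65Dn B56), and 0 to 1 in Ts65Dn;Brwd1+/- against euploid (1 without male B95, B138 or T35, and without female B125, B136 or B176). Arid1b then ran from 0.29 to 0.38 in males and 0.32 to 0.46 in females.

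The embryo numbers were also tried as a replicate block. With it 1 subunit was called, and 1 with the number in the title as block. Same-numbered embryos correlated by -0.133 to 0.229 (median 0.06), and 1 of 7 correlated best with its own number, so these numbers do not pair the samples. Embryos that share the number in the title correlated by a median of 0.0601, and those with another title number by -0.0317. Every subunit had at least 50 counts in every library, and Dpf3 had the fewest.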
